A study of Homo sapiens with 4 samples.

Results

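The Notch pathway was examined through 10 genes in FLO-1LM and FLO-1 parental cells. They were the receptors *NOTCH1*, *NOTCH2* and *NOTCH3*, the ligands *JAG1* and *DLL1*, the modifier *LFNG*, the coactivator *MAML1* and the HES repressors *HES1*, *HES2* and *HES4*. Each symbol matched 1 Ensembl gene, so the set took 10 of the 63677 genes listed in the count files, and all 10 had enough reads to be tested. The set was put together around *HES4*, which was selected on its lower count in FLO-1LM in this same comparison, and the other 9 were added for their roles in the pathway. The values of the 10 genes are therefore given as a description, with no test of their own, and a gene is said to be called where its adjusted p was below 0.05 in edgeR's fit across all genes.

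Notch receptors sit in the cell membrane and are switched on by ligands of the Jagged and Delta families on neighbouring cells. Binding exposes the receptor to an ADAM protease and then to gamma-secretase, and the freed intracellular part joins the DNA-binding protein RBPJ and a Mastermind coactivator in the nucleus. Genes of the HES and HEY families, which encode basic helix-loop-helix repressors, are the best known targets, and in gut epithelium the pathway governs the choice between absorptive and secretory cells.

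FLO-1 is a human cell line of esophageal adenocarcinoma, and FLO-1LM is a subline grown from a liver deposit of FLO-1 cells after serial passage of such deposits through immunodeficient mice. RNAseq was performed on total RNA from cultured cells that received no treatment, with 2 libraries of FLO-1LM and 2 of FLO-1 parental cells. The subline is a single isolate, and it is not stated if each library had a culture of its own, so the p-values may measure technical spread only. Total counts ran from 19060310 to 25920336 per library. Levels are given as CPM, counts scaled to library size by the TMM method, and fold changes compare FLO-1LM with parental cells on a log2 scale.

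Cell type markers were read in both lines. *KRT8* and *KRT18*, keratins of simple epithelia, were abundant at 434 and 453 CPM and at 295 and 288 CPM in the parental libraries, and 5 of the 8 epithelial markers were called lower in FLO-1LM by edgeR. The 8 summed to 496 and 512 CPM in FLO-1LM and to 867 and 879 CPM in parental cells, most of it *KRT8* and *KRT18*, and their part in the values of the Notch genes was not tested. The other 3 were not called lower. *KRT7*, a keratin of glandular epithelia, had 6.37 and 6.06 CPM in FLO-1LM and 3.08 and 4.90 CPM in parental cells, higher in FLO-1LM with no overlap, and was not called (log2 fold change 0.64). *CLDN7*, a tight junction protein, overlapped between the lines on 16 to 32 counts per library. *EPCAM*, a general carcinoma surface marker, was near absent, with 3 to 12 counts per library, and was not tested. The summed level of the 6 fibroblast markers did not exceed 13.1 CPM, nearly all of it *COL1A1*, that of the 5 leukocyte markers 2.15 to 3.42 CPM, and that of the 3 matched endothelial markers 0.0388 to 0.313 CPM. The 5 hepatocyte markers summed to 13.4 to 18.1 CPM, nearly all of it *SERPINA1*, and *ALB*, *TTR* and *FGB* had no count in any library.

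Promoter sequences of *HES4* and *HES1* are shown first because these genes share a sequence arrangement while only *HES4* was called between the lines. RBPJ is known to bind DNA at a core of the letters TGGGAA. The windows come from RefSeq (build GRCh38.p14) and run from 250 bases before the gene start to 50 bases after it. Both were found once, letter for letter, in GRCh37, at chr1:935428-935727 on the reverse strand for *HES4* and at chr3:193853687-193853986 on the forward strand for *HES1*. Capitals mark TGTGGGAA, which contains the core, and a downstream partner TTCACAC, which reads GTGTGAA on the opposite strand.
HES4: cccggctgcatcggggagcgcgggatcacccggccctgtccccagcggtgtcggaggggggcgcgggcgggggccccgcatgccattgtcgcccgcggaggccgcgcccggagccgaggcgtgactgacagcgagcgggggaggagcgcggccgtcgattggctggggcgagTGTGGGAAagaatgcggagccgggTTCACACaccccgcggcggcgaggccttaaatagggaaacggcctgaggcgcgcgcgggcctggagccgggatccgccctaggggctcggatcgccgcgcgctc
HES1: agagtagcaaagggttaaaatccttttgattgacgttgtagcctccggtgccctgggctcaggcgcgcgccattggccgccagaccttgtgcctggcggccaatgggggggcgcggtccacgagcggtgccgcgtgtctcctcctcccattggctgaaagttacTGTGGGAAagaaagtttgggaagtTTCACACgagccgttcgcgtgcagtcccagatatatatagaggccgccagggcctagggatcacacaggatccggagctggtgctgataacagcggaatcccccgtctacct

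In both windows the 2 marked stretches lie on the same strand with 16 bases between them. The first begins 78 bases before the start of *HES4* and 86 bases before that of *HES1*. The bases between them in *HES1* hold another copy of the core TGGGAA, not in capitals, which begins 70 bases before the start. Those in *HES4* hold no such copy. The letters were chosen after these windows had been read. Searched on both strands, the core TGGGAA is present in 24% of the 35116 promoter windows in the table, which cover 27305 genes, TGTGGGAA in 1.71% and TTCACAC in 3%. The longer motif followed on its own strand by the partner within 40 bases occurs in 5 windows, or 0.0142%, those of *HES1*, *HES4*, *ZNF674*, *ZNF674-AS1* and *LOC124903908*, and the spacing of 16 bases occurs in the *HES1* and *HES4* windows alone. Of the 10 genes, 9 had a window, and the core was also present in that of *LFNG*. Among 49 other pathway genes, with 70 windows in all, 13 genes held the core in any of their windows. This is a count by gene, unlike the shares by window above. *HES5* held TGTGGGAA, shown here with the bases that follow it.
HES5: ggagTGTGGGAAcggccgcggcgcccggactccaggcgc

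The *HES5* window is at chr1:2530214-2530513 of GRCh38.p14 on the reverse strand, and the match shown begins 82 bases before the start. Another copy of TGTGGGAA, not shown, lies on the opposite strand of this window and reaches 224 bases before the start. The *HES5* window does not hold the partner. RefSeq places the start of *HES4* 75 bases inside the gene as GENCODE annotates it on GRCh37, while the 2 starts of *HES1* coincide. A match of letters is not a binding site, and no binding was measured in these cells.

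**Figure D1:**
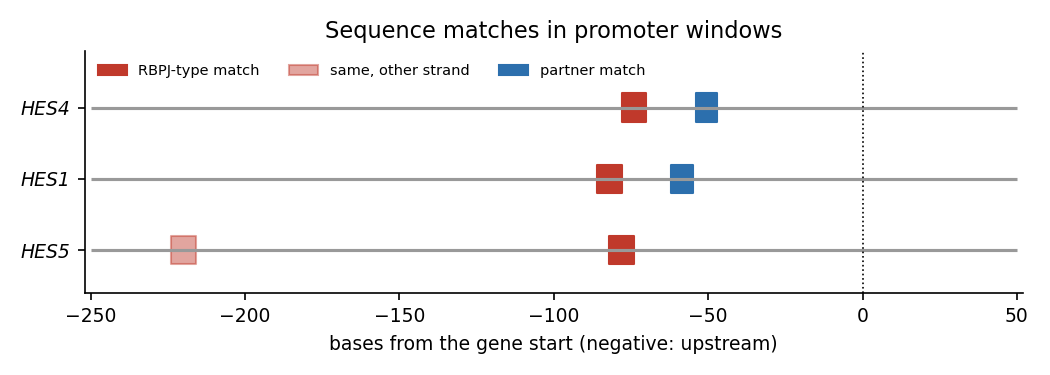
Positions of the sequence matches in the promoter windows of HES4, HES1 and HES5, in bases from the gene start. Red boxes mark TGTGGGAA (pale on the other strand) and blue boxes TTCACAC, and HES4 and HES1 show the same order of red and blue with 16 bases between.

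*HES4*, a HES repressor found in humans but not in mice, was 1.80-fold lower in FLO-1LM and was the 1 gene of the 10 called in the fit across all genes. It lies on the reverse strand of chromosome 1 of GRCh37 from 934342 to 935552 (ENSG00000188290). The FLO-1LM libraries held 1137 and 1618 reads of *HES4* and the parental libraries 2327 and 1907. This was 51.0 and 62.8 CPM in FLO-1LM against 106 and 99.5 CPM in parental cells. Both FLO-1LM libraries were thus below both parental ones, and the larger spread was within FLO-1LM, where the libraries differed 1.23-fold. The means were 56.9 ± 8.35 CPM in FLO-1LM and 103 ± 4.32 in parental cells (SD, n = 2 each), which left FLO-1LM at 55.5% of the parental level. The log2 fold change was −0.85 ± 0.098 (standard error, SE, 95% interval −1.05 to −0.64). Among the 313 genes called lower by edgeR, *HES4* stood at place 28 by p-value and at place 207 by the size of its change. It is a bulk measurement, in which fewer cells expressing *HES4* and less *HES4* RNA per cell cannot be told apart.

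The closest relative of *HES4* in the set, *HES1*, the classical Notch target, had means of 24.4 ± 6.97 CPM in FLO-1LM and 25.1 ± 1.92 in parental cells (SD, n = 2 each). Its single values were 29.3 and 19.5 CPM in FLO-1LM and 26.4 and 23.7 CPM in parental cells. The FLO-1LM libraries lay on either side of both parental ones and differed 1.51-fold from each other, the widest gap within a line for any of the 10 genes. The log2 fold change was −0.046 ± 0.16 (SE, 95% interval −0.38 to 0.29). *HES2*, a less studied repressor of the family, had 8.17 and 10.6 CPM in FLO-1LM and 11.7 and 14.7 CPM in parental cells. The lines did not overlap, but the log2 fold change of −0.49 ± 0.19 (SE, 95% interval −0.89 to −0.087) was not called. Intervals here are for single genes and are not adjusted for the number of genes tested.

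The ratio of *HES4* to *HES1* reads was 1.74 and 3.23 in FLO-1LM and 3.99 and 4.19 in parental cells. In the first FLO-1LM library, *HES4* was at its lowest and *HES1* at its highest. *HES6* and *HES7*, which with these 3 genes make up the HES genes with reads, had log2 fold changes of −0.19 ± 0.17 (SE) and −0.019 ± 0.14 (SE) and were not called. Summed over the 5 genes and not scaled to gene length, HES reads came to 124 and 130.1 CPM in FLO-1LM and 179 and 181 CPM in parental cells. Without *HES4* the sums were 73.2 and 67.3 CPM in FLO-1LM and 72.9 and 81.5 CPM in parental cells. *HES4* thus gave 41.1% and 48.3% of the summed HES CPM in FLO-1LM and 59.1% and 55.0% in parental cells. Annotated exon lengths ran from 1118 bases for *HES4* to 5407 for *HES2*, so these are shares of reads and not of transcripts.

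**Figure D2:**
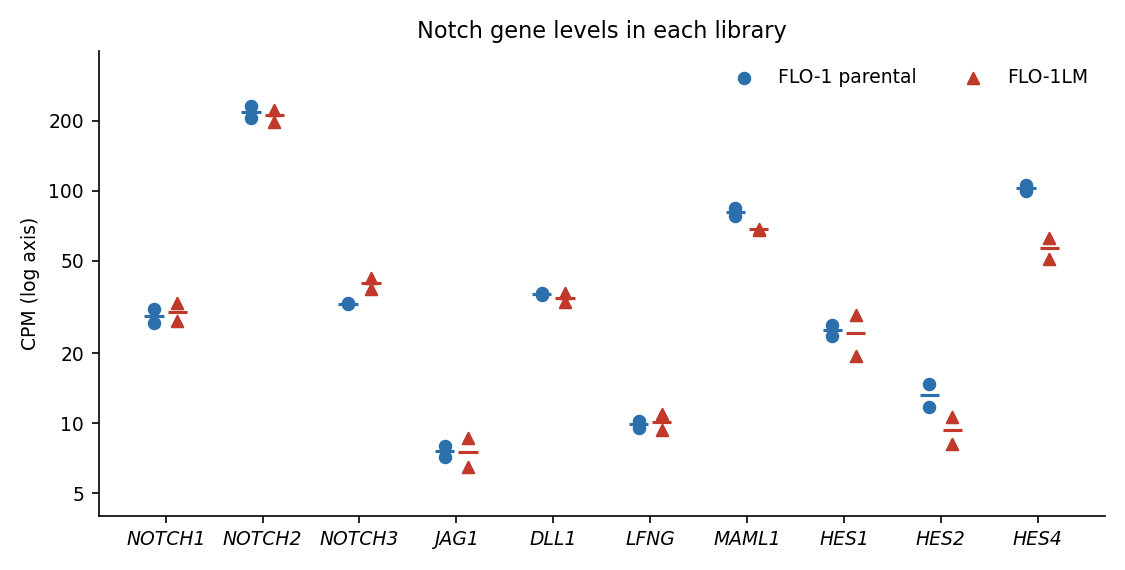
Level of each of the 10 Notch genes in each library, in CPM on a log axis. Blue circles are the 2 parental libraries, red triangles the 2 FLO-1LM libraries, and short lines the mean of a line, and HES4 shows the widest gap between the lines, at 51.0 and 62.8 against 106 and 99.5 CPM.

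None of the 3 receptors was called. *NOTCH2*, the most abundant of them also per kilobase, had 198 and 223 CPM in FLO-1LM and 230.5 and 205 CPM in parental cells, and the lines overlapped. Its log2 fold change was −0.047 ± 0.083 (SE, 95% interval −0.22 to 0.13). The human-specific NOTCH2NL copies are near identical to the start of *NOTCH2*, and how the authors' counting treated shared reads is not stated, so this level is uncertain. Of the copies, *NOTCH2NLA* was matched by its Ensembl ID and was listed at 0 counts in all 4 libraries. *NOTCH2NLB*, *NOTCH2NLC* and *NOTCH2NLR* were not matched by ID, so the reads at the copies as a whole are not known.

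*NOTCH1* had 32.8 and 27.4 CPM in FLO-1LM and 31.1 and 27.0 CPM in parental cells, with a log2 fold change of 0.048 ± 0.13 (SE, 95% interval −0.22 to 0.31). The libraries of a line differed from each other by more than the means of the lines did. *NOTCH3* had 42.2 and 37.9 CPM in FLO-1LM and 32.5 and 32.9 CPM in parental cells. Both FLO-1LM libraries were above both parental ones, at 122% of the parental mean, and the log2 fold change was 0.29 ± 0.11 (SE, 95% interval 0.065 to 0.52). It was not called.

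Neither ligand was called. *DLL1*, a Delta-type ligand, had 36.3 and 33.1 CPM in FLO-1LM and 36.5 and 35.6 CPM in parental cells, with a log2 fold change of −0.056 ± 0.11 (SE, 95% interval −0.28 to 0.17). *FAM120B* overlaps *DLL1* on the opposite strand, at 70.4 to 75.0 CPM, and the strand setting of the counting is not stated. *JAG1*, a Jagged-type ligand, was the least abundant of the set, also per kilobase, at 6.46 and 8.62 CPM in FLO-1LM and 7.98 and 7.15 CPM in parental cells. Its log2 fold change was −0.0022 ± 0.21 (SE), and at 137 to 222 counts per library the interval was wide, from −0.45 to 0.45.

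*LFNG*, the Lunatic Fringe enzyme that extends sugars on Notch receptors and shifts their response between ligands, had 10.9 and 9.36 CPM in FLO-1LM and 10.3 and 9.49 CPM in parental cells. Its log2 fold change was 0.035 ± 0.18 (SE, 95% interval −0.35 to 0.42), and the lines overlapped. *MAML1*, the Mastermind coactivator of the nuclear complex, had 67.6 and 68.8 CPM in FLO-1LM and 84.2 and 78.1 CPM in parental cells. The lines did not overlap, and FLO-1LM stood at 84.0% of the parental mean. The log2 fold change of −0.25 ± 0.086 (SE, 95% interval −0.43 to −0.070) was not called.

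In all, 1 of the 10 genes was called lower, 0 were called higher and 9 were not called. Of all 17143 genes tested, edgeR called 2.23%, with 1.83% lower and 0.402% higher. The lines did not overlap in 4 of the 10, *HES4*, *HES2* and *MAML1* with FLO-1LM lower and *NOTCH3* with FLO-1LM higher. Over all genes tested, the lines did not overlap in 42.6%, with FLO-1LM lower in 21.7% and higher in 20.9%. Nothing is read from these counts, since the set was drawn from the same comparison. The median log2 fold change of the 10 was −0.046, beside 0.0016 for all genes tested.

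**Figure D3:**
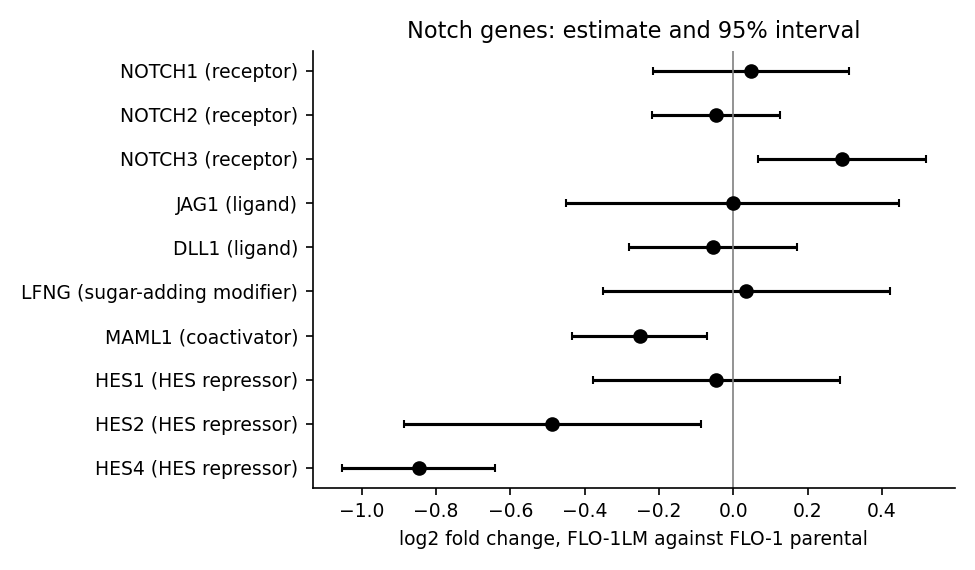
Log2 fold change of each Notch gene, FLO-1LM against parental, with its role in parentheses. Points are edgeR estimates and bars 95% intervals for single genes, and HES4 has the lowest estimate at −0.85, while the intervals of 6 genes include 0.

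Levels of different genes were compared as CPM per kilobase of annotated exon. *HES4* was at the top in both lines, at 50.9 ± 7.47 CPM per kilobase in FLO-1LM and 91.7 ± 3.86 in parental cells (SD, n = 2 each), and *JAG1* at the bottom, at 0.811 and 0.814. In parental cells *MAML1* (13.6), *NOTCH2* (13.0) and *HES1* (12.2) followed *HES4*, and neighbours in that order overlapped between libraries. In FLO-1LM the order of these was *NOTCH2* (12.6), *HES1* (11.8) and *MAML1* (11.4), again with overlapping neighbours. *DLL1* (9.44 in parental cells and 9.09 in FLO-1LM), *NOTCH3* (3.48 and 4.26) and *LFNG* (2.87 and 2.95) came next in both lines and did not overlap with each other. *HES2* and *NOTCH1* overlapped in parental cells, at 2.44 and 2.32, and not in FLO-1LM, at 1.74 and 2.40. Exon lengths are from a later annotation than the one used for counting and join the exons of all transcripts, which lowers the value of genes with many rare exons.

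The fit was repeated with each library left out. Since *HES4* was selected on these same libraries, its values here show only how far they depend on a single library. *HES4* was called each time, with log2 fold changes from −1.01 to −0.71. *HES1* moved the most, from −0.37 without the first FLO-1LM library to 0.22 without the second. Without the second FLO-1LM library, *HES2* (−0.69, adjusted p = 0.012 from edgeR) and *NOTCH3* (0.37, adjusted p = 0.039 from edgeR) were called as well. In that fit FLO-1LM is a single library and the spread comes from the parental pair alone, and 967 genes were called in all. *MAML1* kept its direction in all 4 fits, from −0.30 to −0.20, without being called.

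**Figure D4:**
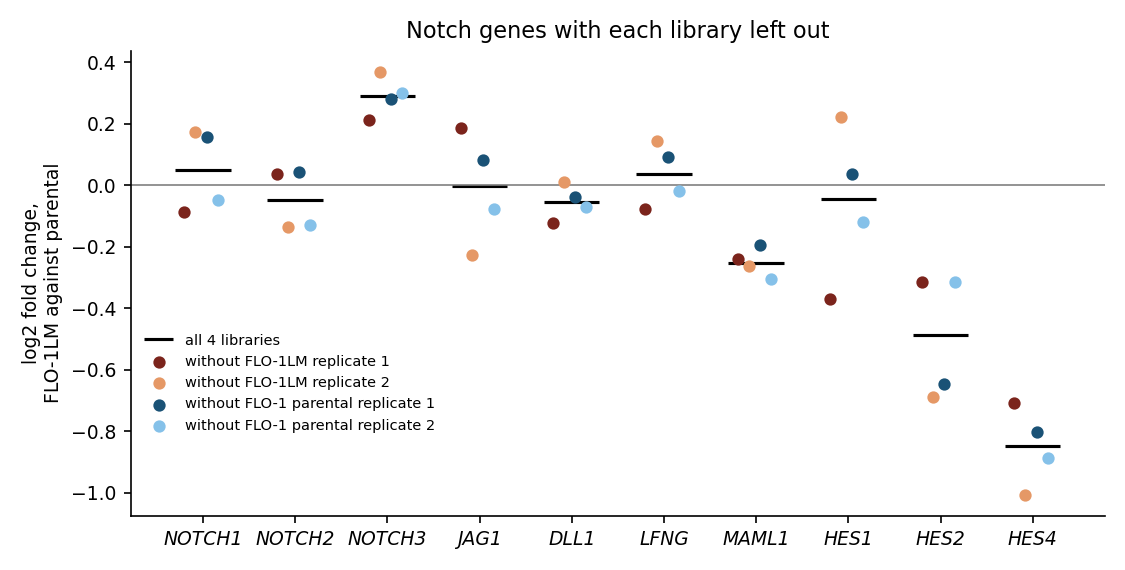
Log2 fold change of each Notch gene with all 4 libraries (black lines) and with each library left out in turn (colored points). HES4 stays between −1.01 and −0.71, while HES1 runs from −0.37 to 0.22.

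The rest of the pathway was read from a list of 61 genes set by role. Of these, 58 were tested and 0 were called by edgeR, beside 2.23% of all genes tested. Log2 fold changes were below 0 for 29 of the 58 and above 0 for 29. Their median was 0.0072, beside 0.0016 for all genes tested. Unadjusted p-values were below 0.05 for 10 of the 58, beside 12.4% of all genes tested, and DESeq2 and limma voom also called 0.

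*MYC*, a growth regulator and known Notch target, had the smallest p-value of the 58. Its level was 91.2 and 95.7 CPM in FLO-1LM and 68.8 and 80.6 CPM in parental cells, with no overlap. The log2 fold change was 0.32 ± 0.091 (SE, adjusted p = 0.079 from edgeR), short of the cut-off. Among the other targets, *HEYL*, a HES-related repressor, had a log2 fold change of 0.38 ± 0.20 (SE) and *NRARP*, a feedback inhibitor of the Notch complex, of −0.27 ± 0.12 (SE). *CCND1*, which encodes cyclin D1 and was the most abundant target per kilobase, was at −0.13 ± 0.071 (SE). *HES3*, *HES5* and *HEY2* had 0 counts in all libraries, which allows a level of up to 0.116 to 0.156 CPM by counting error alone (3 counts).

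The ligand *DLL4*, known from blood vessels, had the largest estimate of the list at −2.14 ± 0.95 (SE), on 5 and 1 counts in FLO-1LM and 14 and 10 in parental cells. The next in size were *NEURL1*, a ubiquitin ligase, at −1.25 ± 0.71 (SE), and *DLK1*, a Delta-like protein, at −0.85 ± 0.39 (SE), with 8 to 19 and 35 to 56 counts per library. The largest positive estimates beside that of *HEYL* were those of *MAML3*, a Mastermind coactivator, at 0.54 ± 0.64 (SE) and *DTX1*, a Deltex ubiquitin ligase, at 0.50 ± 0.33 (SE), and none of these 5 was called. The fourth receptor, *NOTCH4*, was at 0.30 ± 0.34 (SE) on 37 to 77 counts per library.

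By role, the 13 sugar and processing enzymes had a median log2 fold change of 0.025, and *PSENEN*, a gamma-secretase subunit and the most abundant of them per kilobase, was at 0.19 ± 0.082 (SE). The 12 trafficking and turnover genes had a median of 0.035, with *NUMBL*, a Numb-like adaptor and the most abundant of them per kilobase, at 0.11 ± 0.080 (SE). The 8 genes of the nuclear complex had a median of 0.0052, with *SNW1* at 0.067 ± 0.083 (SE) and *RBPJ* itself at −0.013 ± 0.11 (SE, 95% interval −0.24 to 0.21). For the 10 corepressors it was −0.035, with the deacetylase gene *HDAC1* at −0.17 ± 0.068 (SE). The 5 ligands had the median farthest from 0 of these 5 roles, at −0.18, with 4 of 5 estimates below 0 and none called, and *DLK2*, the most abundant of them per kilobase, was at −0.18 ± 0.10 (SE).

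**Figure D5:**
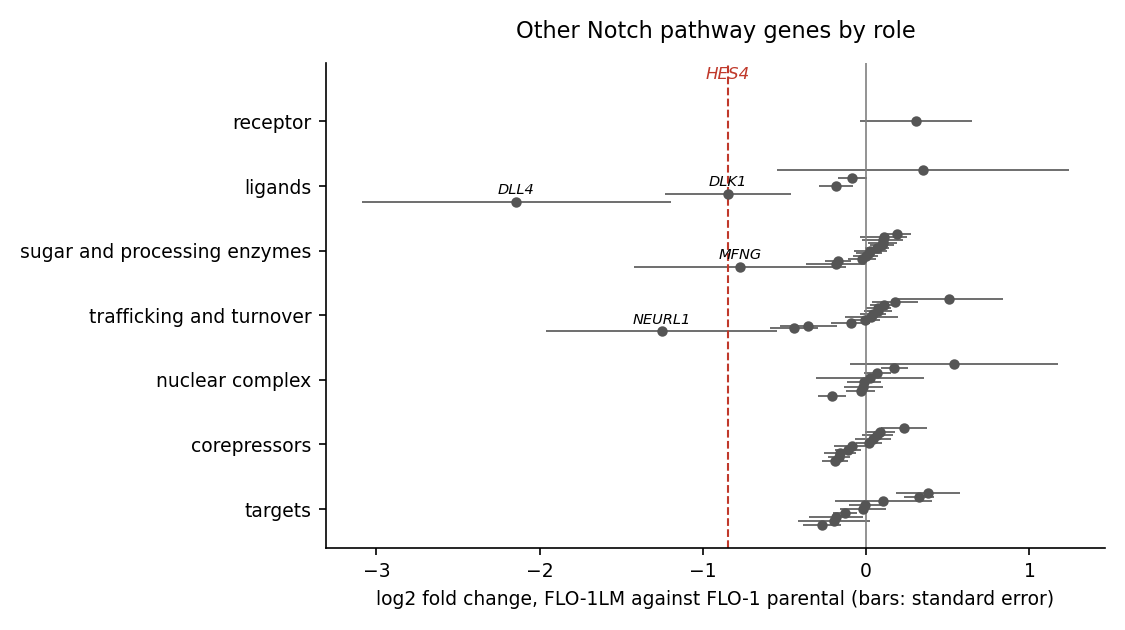
Log2 fold changes of the 58 other Notch pathway genes tested, by role, FLO-1LM against parental. Points are edgeR estimates, bars are standard errors, and the dashed line marks HES4 at −0.85. The 4 named genes reach beyond −0.6, and none of the 58 was called.

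The surroundings of *HES4* on chromosome 1 were read next, over the 9 annotated genes within 50 kb. *ISG15*, an interferon-induced ubiquitin-like modifier whose annotated start lies 966 bases from *HES4* on the other strand, had 807 and 639.8 CPM in FLO-1LM and 796 and 855 CPM in parental cells. The lines overlapped, with a log2 fold change of −0.19 ± 0.088 (SE, adjusted p = 0.39 from edgeR). The long noncoding RNA gene ENSG00000272512, 911 bases beyond the end of *HES4*, was at −0.056 ± 0.090 (SE, adjusted p = 0.88 from edgeR). *AGRN*, which encodes the basement membrane protein agrin and lies 19948 bases away, was the 1 neighbour called, at −0.29 ± 0.069 (SE, adjusted p = 0.033 from edgeR). *NOC2L* and *KLHL17* were at −0.16 ± 0.074 (SE) and −0.28 ± 0.10 (SE) and were not called. For *NOC2L*, *KLHL17* and *AGRN*, both FLO-1LM libraries were below both parental ones. The lines did not overlap in 42.6% of all genes tested. *PLEKHN1* had 5.16 and 6.21 CPM in FLO-1LM and 4.45 and 4.33 CPM in parental cells, higher in FLO-1LM with no overlap, and was not called (log2 fold change 0.38 ± 0.24, SE). *PERM1* was at 0.89 ± 0.76 (SE) on 6 to 17 counts per library, also higher in FLO-1LM with no overlap, and was not called. The other 2 neighbours had too few counts to be tested.

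No annotated gene overlaps *HES4*, *HES1*, *HES2*, *NOTCH3* or *MAML1*. The genes whose centred log2 CPM over the 4 libraries lay nearest to that of *HES4* were ENSG00000248774, a long noncoding RNA gene, *XDH* and *ETV7*, at Euclidean distances of 0.048, 0.051 and 0.060. The distances were taken with 0.5 CPM added to each value, which draws genes of low level toward 0. The first and second had at most 17 counts in a library, and their fitted log2 fold changes of −1.79 ± 0.80 (SE) and −2.43 ± 0.95 (SE) were well below that of *HES4*. Neither was called. *ETV7*, an ETS family factor, had 90 and 138 counts in FLO-1LM and 200 and 168 in parental cells. Its log2 fold change was −0.92 ± 0.22 (SE), and it was called lower (adjusted p = 0.034 from edgeR). For scale, *CDH1*, the E-cadherin gene that the study turns on, had a log2 fold change of −2.21 ± 0.11 (SE).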

How the data were processed

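RNAseq was performed on total RNA of 4 libraries. Per the methods, directional libraries were sequenced on an Illumina instrument, bases were called with bcl2fastq 2.17, adapters were trimmed with Trimmomatic 0.30, and reads were aligned to GRCh37. The authors deposited raw read counts per Ensembl gene. The aligner, the counter and whether strand was used in counting are not given in the sources used here. Lines were taken from the sample labels.

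Genes were filtered with edgeR's filterByExpr at its defaults (minimum count 10, minimum total 15), which left 17143, and scaled by TMM. The lines were compared in R 4.3.3 by edgeR 4.0.16 (quasi-likelihood test, Benjamini and Hochberg adjustment over all genes tested), and genes with an adjusted p below 0.05 were called. Standard errors are the absolute log2 fold change over the square root of F. Alternatives used DESeq2 1.42.0, limma 3.58.1 (voom, the authors' kind of model), other scaling and filters, no mitochondrial genes, and each library left out. Scripts were tested on simulated data. Positions and exon lengths are from GENCODE on GRCh37. Profile distances used a pseudocount of 0.5 CPM.

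The 10 genes and the other lists were chosen with earlier results of these data known. Of the other pathway genes, the rule named those called, those at 0 counts, the 3 largest estimates in each direction and the most abundant per kilobase of each role. *RBPJ*, *MYC*, *NRARP*, *HES6* and *HES7* were picked after their values were seen. The marker *PECAM1* could not be matched by ID. Intervals at 0 counts cover counting error only.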

Additional observations from a re-analysis of the deposited data

How the results depend on the processing

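Across the 11 alternatives, *HES4* was called lower in all, with log2 fold changes from −0.88 to −0.85 in those that kept all libraries. One of the 10 genes was called in each of these, and with a library left out the number ran from 1 to 3. Of the other pathway genes, 1 (*MYC*) was called with no low-count filter, and 0 to 3 with a library left out: *MYC* without the first FLO-1LM library, and *MYC*, *DTX4* and *MFNG* without the second. Over all genes, 577 were called with no low-count filter, and 116 to 1052 with a library left out, the low values without a parental library (116 and 139) and the high ones without a FLO-1LM library (1052 and 967). DESeq2 gave 337 and limma voom with TMM factors 368. A fit with a library left out takes its spread from the pair that remains and assumes that the lone library varies alike. All alternatives reuse the libraries on which *HES4* was selected, so they are no separate support for its change.

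Directions of genes with estimates near 0 turned when a library was left out. Such fits hold fewer samples, and the cause of the turns was not tested. The range was −0.087 to 0.17 for *NOTCH1* (turned at −0.087 and −0.049), −0.14 to 0.042 for *NOTCH2* (0.036 and 0.042), −0.23 to 0.19 for *JAG1*, −0.12 to 0.011 for *DLL1*, −0.079 to 0.14 for *LFNG* and −0.37 to 0.22 for *HES1*. With all libraries kept, no gene of the 10 changed sign. *JAG1*, *HES2* and *LFNG* had the fewest counts of the 10 and the widest intervals, and what part depth had in this was not tested. No paired analysis was possible because the labels carry no replicate numbers, and the numbers used here only name the libraries in listing order.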
